A study of Mus musculus with 24 samples.

Results

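Kidneys of mice labelled Glis3 KO were compared with kidneys labelled wild type (WT) at postnatal day 7 (PND7), the youngest of 3 ages sampled, to see how far gene expression already differed in the first postnatal week. The comparison holds every library of that age with a count column, which is 5 of the 23 libraries with counts in the series: KO replicates 1 and 2, and WT replicates 1, 2 and 3. The KO replicate labelled 3 was marked by the submitters as removed, so the labels describe 24 samples. Whole kidneys were the source, total RNA was the material, and the series describes the KO animals as Glis3-null. The allele, strain and sex are not given in the sources used here, nor is it stated whether a library came from 1 animal or from several. No age shares a library with another.

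GLIS3 is a zinc finger transcription factor of the family that includes the GLI effectors of hedgehog signalling. In the kidney it is found at the primary cilium of tubule and duct cells as well as in the nucleus, and its loss in mice and in people is known for cystic kidneys together with neonatal diabetes and hypothyroidism. In the mouse the first postnatal week is the time when new nephrons cease to form and when the tubules begin to acquire their adult transport functions.

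Total counts were 58005131 and 64474380 in the KO libraries and 65567236 to 126689315 in WT, and values below are CPM, the counts per library scaled by TMM to a common size. The libraries expressed the defining genes of kidney: the proximal tubule phosphate carrier gene Slc34a1 lay at 1236 to 2186 CPM, the thick limb carrier gene Slc12a1 at 1010 to 1383 CPM and the podocyte gene Nphs1 at 59.1 to 93.4 CPM. Six2, which marks nephron progenitors, lay at 0.103 to 0.31 CPM in all 5 libraries. The KO libraries stood apart from WT and from each other. On the first principal component, with 56.6% of the variance, KO replicate 1 lay at -34.2, KO replicate 2 at -0.878 and WT from 6.34 to 15.0. On the second, with 21.9%, KO replicate 2 lay at -22.3 and the other 4 libraries from 3.93 to 6.90. Log2 CPM of the KO libraries correlated across genes with r = 0.984, against 0.994 to 0.996 between WT libraries, and KO replicate 2 correlated with each WT library at r = 0.991, more closely than with KO replicate 1. Results are therefore given for each KO library.

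Glis3 itself (Entrez gene 226075, minus strand of chromosome 19, 28258851 to 28680077 in mm10) lay at 74.1 and 81.1 CPM in the KO libraries and at 87.5, 79.3 and 89.5 CPM in WT. The groups overlapped, since KO replicate 2 lay above WT replicate 2. KO over WT gave a log2 fold change of -0.14 with an SE of 0.0885 (adjusted p = 0.479 by edgeR). A two-sided exact permutation test over all 10 assignments gave p = 0.3, where 0.1 is the smallest it can give. Counts per gene do not separate exons, so this level does not check a deletion of part of the gene, and directions below are those of the libraries as labelled.

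Across the transcriptome the differences were small. The median log2 fold change of 18420 genes tested was 0.01, the central part from the 25th to the 75th percentile ran from -0.14 to 0.19, and the 5th and 95th percentiles were -0.53 and 0.66. Only 4 genes passed edgeR's quasi-likelihood test at a Benjamini-Hochberg adjusted p under 0.05 (0.0217% of those tested), 3 upward and 1 downward. Without adjustment, p was under 0.05 for 1593 higher genes (8.65%) and for 1304 lower ones (7.08%). In 3173 genes (17.2%) both KO libraries lay above every WT library, and in 3228 (17.5%) both lay below, a pattern called separation here. Taken alone, KO replicate 1 lay above every WT library in 37.4% of genes and below in 35.4%, and KO replicate 2 in 34.1% and 33.6%. The labels do not say whether the libraries are separate animals, so these p-values measure only the spread between these samples.

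Most separated genes differed by little. Of the 6401 separated in either direction, 5011 (78.3%) differed by less than 1.5-fold, while 281 were at least 2-fold higher and 172 at least 2-fold lower. The large differences sat mainly in KO replicate 1. Among 14478 genes that averaged 1 CPM or more, that library lay at least 2-fold above every WT library in 201 genes and at least 2-fold below in 85, while KO replicate 2 did so in 19 and 27. Leaving out WT replicate 1 left 1 called gene. Leaving out WT replicate 2 or 3 left 0, where 1575 and 2351 genes had an unadjusted edgeR p under 0.05. Called genes are not counted without a KO library, since 1 KO library has no spread of its own. With 1 KO library left, separation is easier to reach, and the counts were 6453 up and 6364 down without KO replicate 1 and 7068 and 6722 without KO replicate 2. DESeq2 called 829 genes from the same counts.

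Fst encodes follistatin, a secreted protein that binds activins and keeps them from their receptors. It lay at 8.53 and 4.99 CPM in the KO libraries (537 and 290 reads) and at 0.207, 0.188 and 0.236 CPM in WT (15, 24 and 16 reads). The log2 fold change was 5.02, or 32.3-fold, with an SE of 0.295 (adjusted p = 0.0115 by edgeR), and both KO libraries lay far above WT. The gene is on the minus strand of chromosome 13, 114452290 to 114458951. Npy6r, a receptor gene of the neuropeptide Y family, rose by 2.56 (SE 0.222, edgeR adjusted p = 0.0383), with 43.6 and 56.0 CPM in the KO libraries against 11.1, 6.74 and 7.48 CPM in WT. Its highest WT value was thus well under its lowest KO value, and here KO replicate 2 was the higher of the KO libraries.

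Tchh encodes trichohyalin, a structural protein best known from the hair follicle. It stood at 75.7 and 81.4 CPM in the KO libraries and at 36.7, 39.4 and 39.1 CPM in WT, which is 1.03 higher in KO on the log2 scale (SE 0.0791, edgeR adjusted p = 0.0344). Clec18a, which encodes a secreted protein with a C-type lectin domain, was the called gene that fell, with 58.4 and 61.1 CPM in the KO libraries against 117.8, 113.9 and 109.2 CPM in WT (log2 fold change -0.93, SE 0.0775, edgeR adjusted p = 0.0383). In both genes the libraries of a group lay close together, and a difference of about 2-fold passed the test. Tchh lies on the plus strand of chromosome 3, 93442330 to 93449077, and Clec18a on the minus strand of chromosome 8, 111069497 to 111082088. Leaving out a KO library leaves 1 in that group, so only effect sizes are given for those fits. For Fst the log2 fold change was 4.58 without KO replicate 1 and 5.35 without KO replicate 2. Without WT replicate 1, 2 or 3 its edgeR adjusted p was 0.0798, 0.0628 and 0.23. Npy6r was called without WT replicate 1 (edgeR adjusted p = 0.0361) but not without WT replicate 2 or 3 (0.102 and 0.258). Its log2 fold change was 2.74 without KO replicate 1 and 2.37 without KO replicate 2. Among genes that averaged 1 CPM or more Npy6r had an edgeR adjusted p of 0.0513, and in the joint fit of 3 ages Clec18a had 0.0837. The log2 fold change of Clec18a was -0.90 without KO replicate 1 and -0.96 without KO replicate 2, and that of Tchh was 1.08 and 0.98. Without 1 of the WT libraries Clec18a and Tchh had an edgeR adjusted p of 0.225 to 0.3.

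The GLIS binding motif TGGGGGGT was looked for on both strands of promoters from RefSeq (GRCm38.p6, 250 bases before to 50 after the gene's start). It was present in 483 of 27025 promoters (1.79%), in 219 of the 11660 tested genes with a promoter in the table (1.88%), in 35 of 2053 genes separated upward (1.7%) and in 32 of 2101 separated downward (1.52%). Of the 14 genes with a promoter among Glis3, the called genes and those with the largest differences, 0 held it. Among the list members named below, 1 of 88 did, the gene of the kinase Wnk4, which controls salt carriers of the distal tubule. A match is a description of letters and does not show binding. The promoters of the called genes Clec18a (minus strand, chr8:111081659-111081958) and Tchh (plus strand, chr3:93442080-93442379) are shown with that of Wnk4 (plus strand, chr11:101260317-101260616). In the Wnk4 promoter the capitals mark the motif at position 167, counted from the first base shown, on the strand of the gene. The RefSeq start used for Clec18a lies inside the gene's span in the deposited tables, so the stretch shown for it lies within that span.
Clec18a: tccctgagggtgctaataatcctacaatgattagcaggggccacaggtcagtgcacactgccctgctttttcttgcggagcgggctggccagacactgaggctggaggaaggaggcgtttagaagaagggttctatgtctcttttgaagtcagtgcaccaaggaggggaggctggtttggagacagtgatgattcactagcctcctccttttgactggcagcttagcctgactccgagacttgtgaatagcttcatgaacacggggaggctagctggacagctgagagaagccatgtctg
Tchh: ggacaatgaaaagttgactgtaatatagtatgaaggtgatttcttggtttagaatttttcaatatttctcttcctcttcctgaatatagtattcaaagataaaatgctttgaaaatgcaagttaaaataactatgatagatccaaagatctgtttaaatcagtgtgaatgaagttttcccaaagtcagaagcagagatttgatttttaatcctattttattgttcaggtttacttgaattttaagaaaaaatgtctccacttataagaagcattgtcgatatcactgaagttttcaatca
Wnk4: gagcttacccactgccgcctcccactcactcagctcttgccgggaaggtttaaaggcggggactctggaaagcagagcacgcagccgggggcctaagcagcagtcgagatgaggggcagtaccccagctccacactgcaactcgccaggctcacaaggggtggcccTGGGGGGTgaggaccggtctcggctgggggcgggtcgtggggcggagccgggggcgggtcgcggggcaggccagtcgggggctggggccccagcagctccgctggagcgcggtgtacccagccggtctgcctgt

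The largest differences, among genes that averaged 1 CPM or more, with separated groups and an unadjusted p under 0.05, are given next, the higher ones first. None of the genes in this and the next paragraph beyond the 4 already described passed the adjusted test. Sprr2g, a small proline-rich protein gene of stratified epithelia, lay at 9.24 and 1.79 CPM in the KO libraries and at 0.248, 0.165 and 0.192 CPM in WT (4.79 higher on the log2 scale, SE 0.684, edgeR adjusted p = 0.104). The Sprr2 family has near-identical members, so these counts are uncertain. The keratin genes Krt4 (4.62 and 1.48 CPM against 0.141 to 0.922) and Krt15 (4.27 and 1.95 CPM against 0.0863 to 1.02) were separated too. Aldh1a1, which encodes a retinaldehyde dehydrogenase, lay at 28.03 and 8.35 CPM against 2.54 to 4.49 CPM. B4galnt2, a glycosyltransferase gene, lay at 8.13 and 4.75 CPM against 1.39 to 1.68 CPM (log2 fold change 2.10, SE 0.250, edgeR adjusted p = 0.078). Cnmd, the gene of the cartilage protein chondromodulin, lay at 3.68 and 1.88 CPM against 0.454 to 0.782 CPM. In all of these KO replicate 1 was the higher KO library. Without it the log2 fold changes were 3.17 for Sprr2g, 1.53 for Krt4, 1.30 for Aldh1a1, 1.67 for Krt15, 1.73 for Cnmd and 1.67 for B4galnt2. Bcat1, the cytosolic branched-chain aminotransferase gene, rested on that library alone, with 12.0 CPM against 0.654 CPM in KO replicate 2 and 0.289 to 0.635 CPM in WT, and its log2 fold change moved from 3.72 to 0.45 without it. A list of 12 urothelial genes, chosen after values were seen, lay above every WT library in 12 of 12 members in KO replicate 1 and in 9 of 12 in KO replicate 2, beside 37.4% and 34.1% of all genes. Its median log2 fold change was 1.35, and 0.65 without KO replicate 1 and 0.89 without WT replicate 2. The library medians were 2.12 and 0.97 in KO and 0.55, -1.36 and 0.74 in WT, so WT replicate 2 lay far below the other WT libraries and KO replicate 2 lay close to WT replicate 3. Its summed level was 348.4 and 257.8 CPM in the KO libraries and 196.6 to 248.4 CPM in WT, with no member at 0 in all libraries. The part of urothelial cells in these differences was not tested, and in whole-kidney RNA the number of cells of a type and the RNA per cell cannot be told apart, whether a level is higher or lower.

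On the lower side, Klk1, the tissue kallikrein gene of the connecting tubule, had the highest expression. It lay at 63.2 and 118.0 CPM in the KO libraries against 351.2, 272.8 and 280.3 CPM in WT, so that the WT libraries were all more than 2-fold above both KO libraries (log2 fold change -1.73, SE 0.267, edgeR adjusted p = 0.109). The related Klk1b5 lay at 0.397 and 0.706 CPM against 1.65 to 2.07 CPM (log2 fold change -1.73), and reads of this family may be divided uncertainly between its members. Lipg, the endothelial lipase gene, was close in both KO libraries, at 6.29 and 6.60 CPM against 14.3 to 18.4 CPM (log2 fold change -1.35, SE 0.144, edgeR adjusted p = 0.0761). Kcne1, a potassium channel subunit gene, lay at 3.97 and 9.47 CPM against 17.2 to 21.5 CPM. Its log2 fold change moved from -1.50 to -1.001 without KO replicate 1 and to -2.25 without KO replicate 2. Insc, a gene of spindle orientation, lay at 2.80 and 2.02 CPM against 5.37 to 8.03 CPM. Spns3, Tldc2 and Igfn1 had log2 fold changes of -1.48, -1.47 and -1.40, and that of Igfn1 was -0.82 without KO replicate 1 and -2.33 without KO replicate 2. Hsd3b6, a steroid dehydrogenase gene with close relatives, lay at 0.302 and 0.224 CPM against 1.20 to 2.63 CPM. The summed level of 14 adrenal genes was 22.07 and 28.02 CPM in the KO libraries and 32.2 to 39.5 CPM in WT. Cyp11b2 was at 0 in every library. Of 8 tested, 1 was separated downward (12.5%, beside 17.5% of all genes). Their median log2 fold change of -0.61 was 0.11 without WT replicate 1. The part of adrenal tissue in the Hsd3b6 difference was not tested. Pzp, a protease inhibitor gene, was carried by WT replicate 2, at 3.63 CPM against 0.592 and 0.517 CPM in the other WT libraries, and its log2 fold change moved from -2.91 to -1.37 without that library. The liver gene Alb showed the same library, at 62.6 CPM there and 0.445 to 1.27 CPM in the other libraries. The plot of expression by library shows how closely each gene's groups approach each other.

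**Figure D1:**
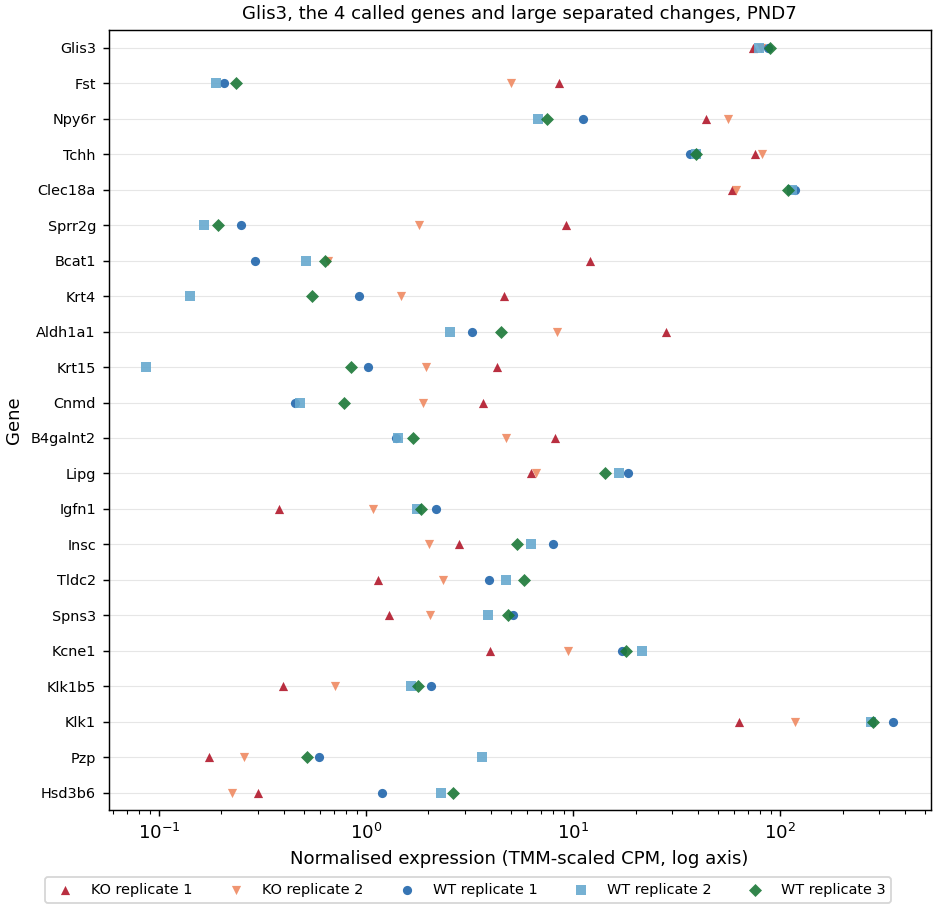
Normalised expression (CPM after TMM scaling, log axis) of Glis3, the 4 called genes and genes with the largest separated differences at PND7, with 1 point for each of the 5 libraries. Klk1 lies at 63.2 and 118.0 CPM in the KO libraries and above 272 CPM in WT, while for Bcat1 KO replicate 1 alone lies away from the other libraries.

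Gene lists of kidney segments, cell types and pathways were then described member by member. Of 771 genes in 31 lists, 737 were tested, and Fst was the only one that passed the adjusted test, so each list is given by its median log2 fold change and by its separated members, beside 0.01 and the shares of 17.2% up and 17.5% down over all genes. The median of a library is the middle of its members' log2 CPM after subtraction of the WT mean.

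Proximal tubule genes lay lower in both KO libraries. Of 37 tested, 27 had lower values, 17 were separated downward (45.9%) and 3 upward, and the median log2 fold change was -0.33. The library medians were -0.37 and -0.31 in KO, and 0.19, -0.07 and -0.11 in WT, so WT replicate 1 lay farther from the other WT libraries than KO replicate 2 lay from WT replicate 3. Miox, the gene of the enzyme that breaks down myo-inositol, lay at 324.7 and 359.3 CPM in the KO libraries against 747.5, 626.3 and 624.6 CPM in WT (log2 fold change -0.96, SE 0.119, edgeR adjusted p = 0.0821). Slc7a7, a basolateral amino acid exchanger gene, lay at 56.9 and 70.8 CPM against 113.8, 107.5 and 113.0 CPM (-0.80, SE 0.108, edgeR adjusted p = 0.0935). For both, the KO values stayed well clear of the lowest WT value. The organic cation carrier gene Slc22a2 lay at 51.2 and 55.1 CPM against 73.3 to 89.2 CPM, and the urate carrier gene Slc22a12 at 64.2 and 84.0 CPM against 103.7 to 113.2 CPM. Lrp2, which encodes the endocytic receptor megalin, lay at 509.3 and 595.7 CPM against 727.7 to 976.0 CPM, and Slc34a1 at 1236 and 1375 CPM against 1646 to 2186 CPM. The 3 separated upward, named after their values were seen, were the neutral amino acid carrier gene Slc6a19 (0.59), the monocarboxylate carrier gene Slc5a8 (0.30) and the transthyretin gene Ttr (0.29). Without WT replicate 1 the list's median was -0.26, and without KO replicate 1 it was -0.32.

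**Figure D2:**
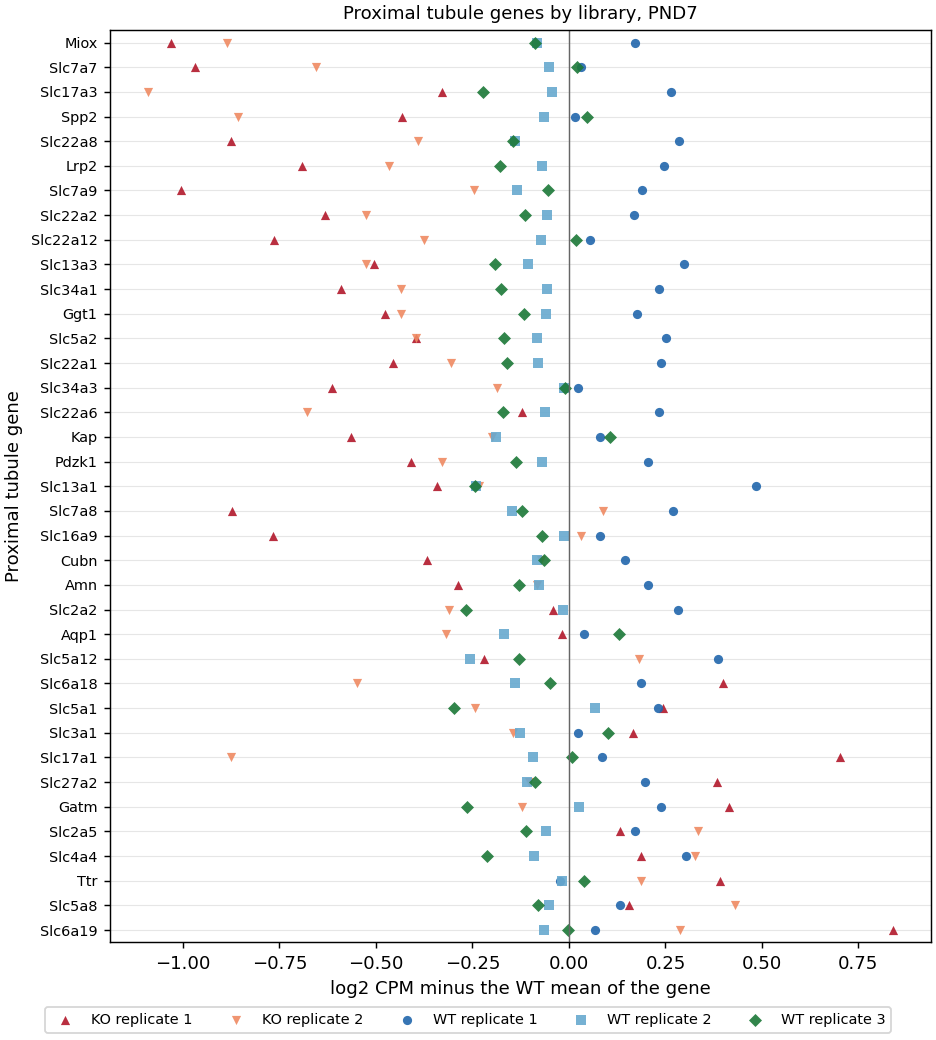
Log2 CPM minus the gene's WT mean for the 37 proximal tubule genes at PND7, 1 row for each gene ordered by log2 fold change and 1 point for each library. In the upper rows both KO libraries lie to the left of all WT libraries, 17 genes in all, and in most rows WT replicate 1 is the WT library farthest to the right.

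Further along the nephron the lists had no common direction. The loop of Henle and distal tubule list had a median of 0.01, with 3 of 21 members separated upward and 5 downward. Egf, the epidermal growth factor gene of the distal tubule, was the member with the smallest p, at 49.5 and 56.9 CPM in the KO libraries against 30.4, 25.3 and 29.0 CPM in WT (log2 fold change 0.91, SE 0.110, edgeR adjusted p = 0.078). Below WT lay Bsnd, the chloride channel subunit gene barttin (73.1 and 92.4 CPM against 113.7 to 122.9), Wnk4 (101.5 and 95.1 CPM against 119.0 to 122.7) and the claudin gene Cldn10 (154.8 and 180.6 CPM against 190.8 to 219.3). The differences of Wnk4 and Cldn10 were under 1.5-fold. Umod and Slc12a3, which mark the thick limb and the distal convoluted tubule, had log2 fold changes of 0.01 and -0.0016, with overlapping groups.

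In the collecting duct list, 3 of 21 members were separated upward and 8 downward (38.1%), and the median was 0.04. Hsd11b2, the gene of the enzyme that shields the mineralocorticoid receptor from glucocorticoid, lay at 131.9 and 141.4 CPM in the KO libraries against 257.0, 238.3 and 232.1 CPM in WT (log2 fold change -0.83, SE 0.0881, edgeR adjusted p = 0.0761). Slc4a9, a bicarbonate transporter gene of intercalated cells, lay at 42.0 and 57.6 CPM against 75.4 to 84.5 CPM. Slc4a1, the anion exchanger gene shared by intercalated cells and red cells, lay at 16.4 and 29.5 CPM against 48.0 to 53.0 CPM. Most blood genes, given below, lay lower as well, and their part in the Slc4a1 value was not tested. The 3 separated upward, of which Krt8 and Krt19 were named after their values were seen, were the epithelial keratin genes Krt18 (204.3 and 120.9 CPM against 66.8 to 85.5), Krt8 (0.39) and Krt19 (1.31). The water channel gene Aqp2 lay at 1830 CPM in KO replicate 1 and at 177.8 CPM in KO replicate 2, above and below the WT range of 197.7 to 289.7 CPM. Its log2 fold change of 1.98 came from 1 library, and the list's median was -0.19 without KO replicate 1.

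Of 20 podocyte genes, 6 were separated downward and 4 upward, with a median of -0.13 that was -0.08 without KO replicate 1 and -0.20 without KO replicate 2. The phosphatase gene Ptpro lay at 70.7 and 82.8 CPM against 104.6 to 113.7 CPM, and the transcription factor gene Lmx1b at 9.97 and 11.1 CPM against 14.5 to 14.7 CPM. The collagen genes of the mature glomerular basement membrane, Col4a3 and Col4a4, lay above WT, at 267.2 and 272.9 CPM against 157.4 to 221.4 CPM and at 405.7 and 422.1 CPM against 263.8 to 343.2 CPM. The nephron progenitor and nascent nephron list had a median of 0.02 with 5 of 24 separated upward and 3 downward, and the median was -0.02 without WT replicate 1. Among its members the integrin gene Itga8 lay at 167.3 and 243.8 CPM against 124.3 to 148.3 CPM, and the nascent nephron gene Lhx1 at 16.9 and 14.2 CPM against 19.8 to 20.8 CPM. In the ureteric bud tip list 4 of 14 were separated in each direction.

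Genes of stroma and extracellular matrix lay higher where they were separated. Of 29 tested, 11 were separated upward (37.9%) and 0 downward, and the median was 0.17. KO replicate 2 carried more of this list than KO replicate 1, with medians of 0.28 and 0.04, and its values lay above every WT library in 23 members (34.1% of all genes did), against 11 for KO replicate 1, a share near the 37.4% of all genes. Without KO replicate 2 the list's median was 0.03, and without KO replicate 1 it was 0.27. The matrix glycoprotein gene Thbs1 lay at 254.4 and 214.7 CPM in the KO libraries against 154.0, 139.4 and 156.2 CPM in WT (log2 fold change 0.65, SE 0.102, edgeR adjusted p = 0.109). The fibronectin gene Fn1 lay at 623.2 and 697.8 CPM against 406.8 to 497.7 CPM. Lox, whose enzyme crosslinks collagen, lay at 191.4 and 126.4 CPM against 76.5 to 92.5 CPM, and the matrix Gla protein gene Mgp at 335.5 and 318.2 CPM against 204.9 to 257.4 CPM. In these 4 genes both KO libraries lay above WT, by different distances. The smooth muscle list, chosen after values were seen, had a median of 0.13, which was 0.05 without WT replicate 2 and 0.21 without WT replicate 3, and 3 of 10 separated upward, among them Actg2 at 5.94 and 3.91 CPM against 0.981 to 1.98 CPM.

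Endothelial and macrophage lists had medians close to that of all genes. These were -0.03 and 0.03, with 2 of 18 and 3 of 23 members separated upward and 1 and 3 downward. The macrophage median was -0.02 without KO replicate 1 and 0.14 without KO replicate 2, and that of endothelium 0.0036 and -0.15. KO replicate 1 lay below every WT library in 12 of 18 endothelial members (library median -0.15) and above in 12 of 23 macrophage members (0.15), and KO replicate 2 in 3 and 3. Over all genes KO replicate 1 lay below in 35.4% and above in 37.4%, and KO replicate 2 in 33.6% and 34.1%. The macrophage genes Lyz2 (37.8 and 38.0 CPM against 24.6 to 29.0) and Mrc1 (21.2 and 22.4 CPM against 17.5 to 18.4) lay above WT, while the antigen presentation genes H2-Ab1 and H2-Eb1 had log2 fold changes of -0.39 and -0.35. The tubule injury list had a median of 0.31 with 7 of 19 members separated upward (36.8%) and 3 downward. This median was that of KO replicate 1 (0.37), since KO replicate 2 lay at 0.01, and without KO replicate 1 it was 0.0047. Lcn2, the lipocalin gene that marks tubule damage, lay at 31.4 and 14.7 CPM against 5.53, 4.47 and 9.49 CPM (log2 fold change 1.83, SE 0.393, edgeR adjusted p = 0.149). Tgfb2 lay at 27.2 and 27.9 CPM against 19.6 to 22.0 CPM, alike in both KO libraries, and the annexin gene Anxa1 at 63.0 and 48.9 CPM against 39.0 to 41.9 CPM. The injury marker gene Havcr1 was at 1.02 and 0.809 CPM against 0.730 to 0.965 CPM, with overlapping groups.

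Among metabolic lists, cholesterol synthesis had the most even direction. Of its 23 tested genes 22 had lower values, 6 were separated downward and 0 upward, and the median was -0.16, with -0.31 in KO replicate 1, -0.12 in KO replicate 2 and -0.14 in WT replicate 3. Without KO replicate 2 the list's median was -0.31, and without KO replicate 1 it was -0.12. Dhcr7, the gene of the last step to cholesterol, lay at 26.6 and 27.3 CPM against 32.6 to 35.7 CPM. Amino acid catabolism had 11 of 35 members separated downward (31.4%) and 3 upward around a median of -0.14, which was -0.07 without KO replicate 1 and -0.24 without KO replicate 2. Prodh2, the hydroxyproline dehydrogenase gene, lay at 40.6 and 61.6 CPM against 84.7 to 121.8 CPM, and Aldh4a1, of the same route, at 98.6 and 157.1 CPM against 210.1 to 261.4 CPM. Fatty acid oxidation and peroxisome genes had a median of -0.03 with 4 of 36 separated upward and 8 downward, and the median was -0.09 without KO replicate 1, 0.05 without KO replicate 2 and 0.01 without WT replicate 1. Nuclear genes of oxidative phosphorylation had 35 of 41 lower values, but the lowest log2 fold change was -0.18, 6 were separated downward, and the median of -0.07 was -0.01 in KO replicate 1 and -0.13 in KO replicate 2. That count of 6 was 16 with upper-quartile factors and 11 without the low-count filter, above 1 CPM on average and in the joint fit of 3 ages. It was 30 without KO replicate 1 and 20 without WT replicate 3, where separation is easier to reach. KO replicate 2 lay below every WT library in 30 of 41 and KO replicate 1 in 9, beside 33.6% and 35.4% of all genes. Glycolysis genes had medians of 0.35 and -0.09 in the KO libraries, so that the list's median turned from 0.13 to -0.09 without KO replicate 1.

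Cell cycle genes lay higher mainly in KO replicate 2. Of 34 tested, 26 had higher values, 10 were separated upward (29.4%) and 1 downward, and the median was 0.19. KO replicate 2 lay above every WT library in 29 members and KO replicate 1 in 10, beside 34.1% and 37.4% of all genes, with library medians of 0.34 and 0.02, and the list's median was 0.01 without KO replicate 2 and 0.34 without KO replicate 1. The mitotic cyclin gene Ccnb2 lay at 41.1 and 48.3 CPM against 30.5, 32.6 and 35.5 CPM (log2 fold change 0.44, SE 0.107, edgeR adjusted p = 0.167), and Cdc20, an activator of the anaphase-promoting complex, at 34.6 and 41.4 CPM against 28.7 to 31.1 CPM. The order of the KO libraries in this list and in the stroma list was the reverse of that in the injury, glycolysis and immediate early lists.

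**Figure D3:**
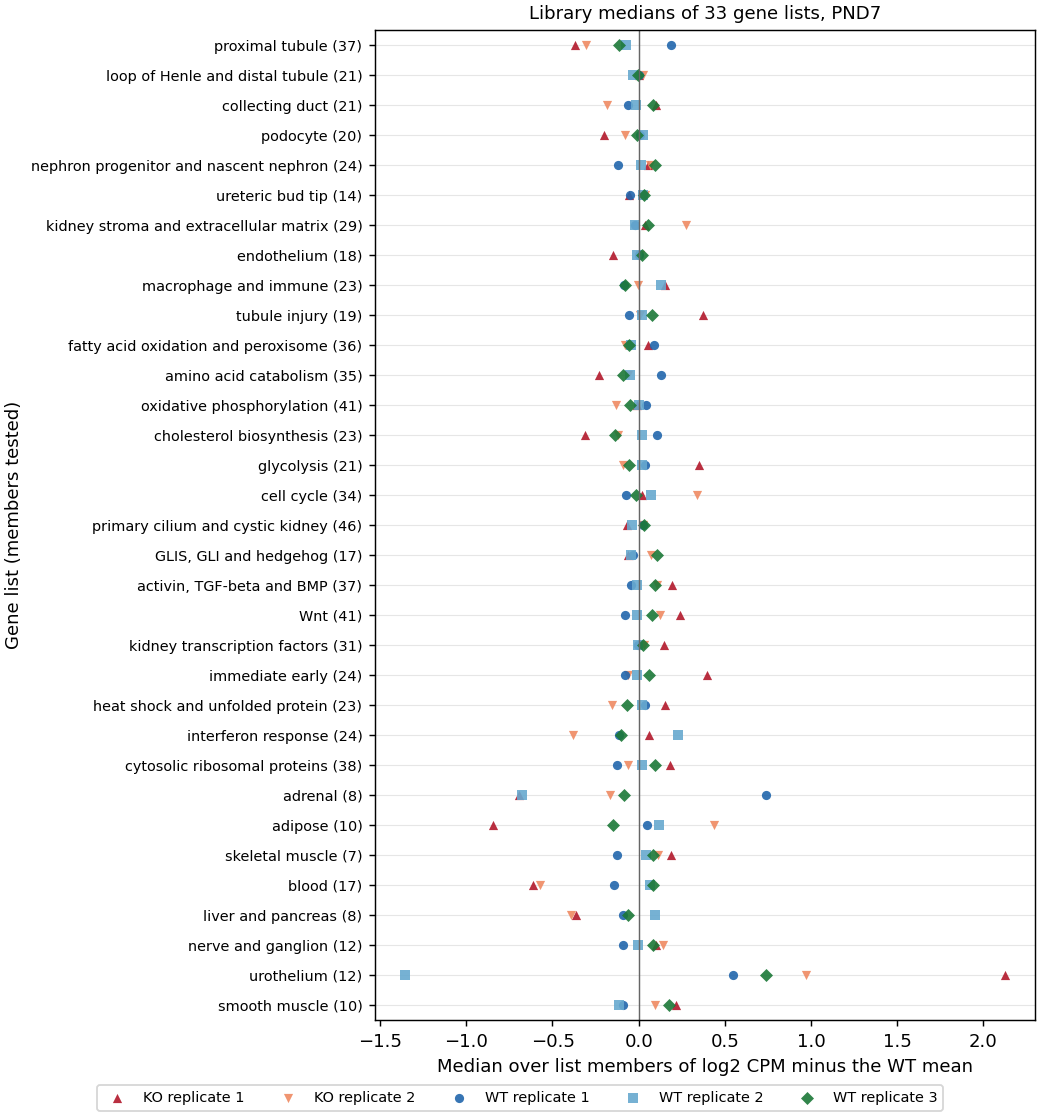
Median over the tested members of log2 CPM minus the WT mean, for 33 gene lists at PND7 (rows, number of members tested in brackets) and 5 libraries (points). Both KO libraries lie below all WT libraries for the proximal tubule, podocyte, blood, and liver and pancreas lists. For cell cycle, glycolysis and immediate early genes 1 KO library lies away from WT and the other lies near it.

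Signalling lists were examined by role. In the activin, TGF-beta and BMP list 12 of 37 members were separated upward (32.4%) and 1 downward, with a median of 0.14. The library medians were 0.20 and 0.11 in KO and -0.05, -0.01 and 0.10 in WT, so KO replicate 2 lay close to WT replicate 3. Beside the antagonist gene Fst, the ligand genes Tgfb2 (log2 fold change 0.40) and Bmp4 (52.4 and 41.2 CPM against 31.0 to 36.7) lay above WT, as did the co-receptor gene Tgfbr3 (65.6 and 57.6 CPM against 44.1 to 47.4). The 1 member separated downward, named after its value was seen, was the inhibitory Smad7 (-0.34). In the Wnt list 12 of 41 were separated upward (29.3%) and 2 downward, with a median of 0.17 and library medians of 0.24 and 0.13 in KO and -0.08, -0.01 and 0.08 in WT. The ligand gene Wnt10a lay at 4.40 and 5.11 CPM against 1.87 to 2.996 CPM, the secreted inhibitor gene Sfrp2 at 68.0 and 76.3 CPM against 43.6 to 54.3 CPM, and the receptor gene Lgr4 at 397.9 and 404.4 CPM against 292.6 to 325.9 CPM. Wnt7a was near the limit of detection, with 45 and 12 reads in the KO libraries and 3, 2 and 4 reads in WT.

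In the list of GLIS, GLI and hedgehog genes 4 of 17 were separated upward and 2 downward, around a median of 0.04. Glis2, a family member whose human counterpart is mutated in a form of the cystic kidney disease nephronophthisis, lay at 201.6 and 195.3 CPM in the KO libraries and at 308.4, 300.2 and 343.8 CPM in WT (log2 fold change -0.68, SE 0.0939, edgeR adjusted p = 0.104). Sufu, the cytoplasmic inhibitor of GLI proteins, lay at 85.4 and 92.6 CPM against 110.4 to 123.5 CPM. Gli3 lay at 18.0 and 21.2 CPM against 12.6 to 14.5 CPM, and the ligand gene Ihh at 23.0 and 18.7 CPM against 12.9 to 15.8 CPM. In each of these 4 the groups did not overlap, and for Ihh the KO libraries lay farther from each other than KO replicate 2 lay from the highest WT library. The primary cilium and cystic kidney list had 11 of 46 separated downward (23.9%) and 6 upward with a median of -0.07, and 0.03 without KO replicate 1. Invs, the inversin gene, lay at 19.0 and 17.2 CPM against 22.6 to 23.7 CPM, and Wwtr1, the gene of the transcription coactivator TAZ, at 211.6 and 199.3 CPM against 146.4 to 161.4 CPM. Pkd1, Pkd2 and Pkhd1, whose human counterparts are mutated in polycystic kidney disease, had log2 fold changes of -0.08, -0.11 and -0.03 with overlapping groups.

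Other lists moved with 1 library. Immediate early genes, which respond fast to stimuli, had library medians of 0.40 in KO replicate 1 and -0.06 in KO replicate 2, with 3 of 24 separated upward, and heat shock genes 0.16 and -0.15. The interferon list had medians of 0.06 and -0.38, with 17 of 24 members below every WT library in KO replicate 2 and 5 in KO replicate 1, beside 33.6% and 35.4% of all genes. Kidney transcription factors had a median of 0.10 and 6 of 31 separated upward, among them Gata3 at 86.1 and 47.8 CPM against 40.3 to 43.0 CPM. No cytosolic ribosomal protein gene of 38 was separated, since KO replicate 1 lay above every WT library in 33 (library median 0.18) and KO replicate 2 above in 0 and below in 7 (-0.06). The median of 0.06 was -0.07 without KO replicate 1 and 0.18 without KO replicate 2. The share of mitochondrially encoded reads, from the chromosome of the mitochondrion, was 5.55% and 5.93% in KO and 4.95% to 6.13% in WT.

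Genes of other tissues were measured because a dissected kidney can carry them. The median of blood genes lay lower in both KO libraries, while single members differed. Of 17 tested, 11 had lower and 6 had higher values, 9 were separated downward (52.9%) and 2 upward. The median log2 fold change was -0.69, and the KO library medians were -0.62 and -0.57. The summed level of the 18 blood genes in the table was 425.5 and 395.0 CPM in the KO libraries and 604.6 to 707.5 CPM in WT. The globin genes Hba-a1 (60.4 and 51.4 CPM against 86.6 to 112.1) and Hba-a2 (39.28 and 32.98 CPM against 57.9 to 72.9), which have near-identical copies, and the erythroid haem synthesis gene Alas2 (19.4 and 19.5 CPM against 28.7 to 34.5) were among them. The groups did not overlap for any of these 3. Nerve genes had a summed level of 103.9 and 69.6 CPM in KO and 51.3 to 59.8 CPM in WT. Of 12 nerve genes tested, 7 were higher and 5 lower, with 4 separated upward and 2 downward. The nerve library medians were 0.10 and 0.14 in KO, close to 0.08 in WT replicate 3. Adipose genes summed to 441.0 CPM in KO replicate 1 and to 236.0 to 255.9 CPM in the other libraries. Most adipose genes lay the other way in KO replicate 1, with 6 of 10 below every WT library and 3 above, and library medians of -0.84 and 0.44 in KO. Skeletal muscle genes lay at 20.0 to 24.1 CPM in all libraries, with Myh2, Myh8 and Tnnc2 at 0. The part of these tissues in other results was not tested.

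The ages after PND7 come from other libraries, so they give a second reading of the same genes. At PND14, with 5 libraries in each group, edgeR called 19.1% of 17702 genes higher and 17.2% lower in KO, and at PND28, with 4 in each group, 32.9% and 32.8% of 16797. Of the genes separated upward at PND7 and tested at PND14, 1122 of 3028 (37.1%) were called higher there and 207 (6.84%) lower, and of those separated downward 957 of 3080 (31.1%) were called lower and 222 (7.21%) higher. At PND28 the shares called in the same direction were 58.6% and 57.8%. Among genes that averaged 1 CPM or more and had a separated difference of at least 2-fold at PND7, 87 of 114 (76.3%) of the higher and 26 of 39 (66.7%) of the lower were called in the same direction at PND14. These are shares of a chosen set, read beside those of all genes.

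A test of the genotype effect itself between ages, in 1 edgeR fit of all 6 groups, found a difference at an adjusted p under 0.05 in 4.96% of 19650 genes between PND14 and PND7 and in 38.5% between PND28 and PND7. For Fst the effect was 4.08 at PND14 and 2.996 at PND28, and for Clec18a -1.56 and -1.82, with no difference from PND7 that passed (edgeR adjusted p = 0.126 for Fst and 0.0879 for Clec18a at PND28). Levels of Clec18a in WT were 7.95 ± 2.44 CPM at PND14 (SD, n = 5) and 1.95 ± 0.362 CPM at PND28 (SD, n = 4), so its effect at later ages is on a low level. The effect on Tchh was 1.43 at PND14 and 0.07 at PND28, where the groups lay at 18.4 ± 4.32 and 17.5 ± 1.37 CPM (SD, n = 4 each). That difference from PND7 passed (-0.96, edgeR adjusted p = 0.00507). The effect on Npy6r was 2.84 at PND14 and 5.24 at PND28. For Klk1 it was -1.81 and -3.26, on WT levels of 1183 ± 76.7 CPM at PND14 (SD, n = 5) and 2076 ± 213.2 CPM at PND28 (SD, n = 4).

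**Figure D4:**
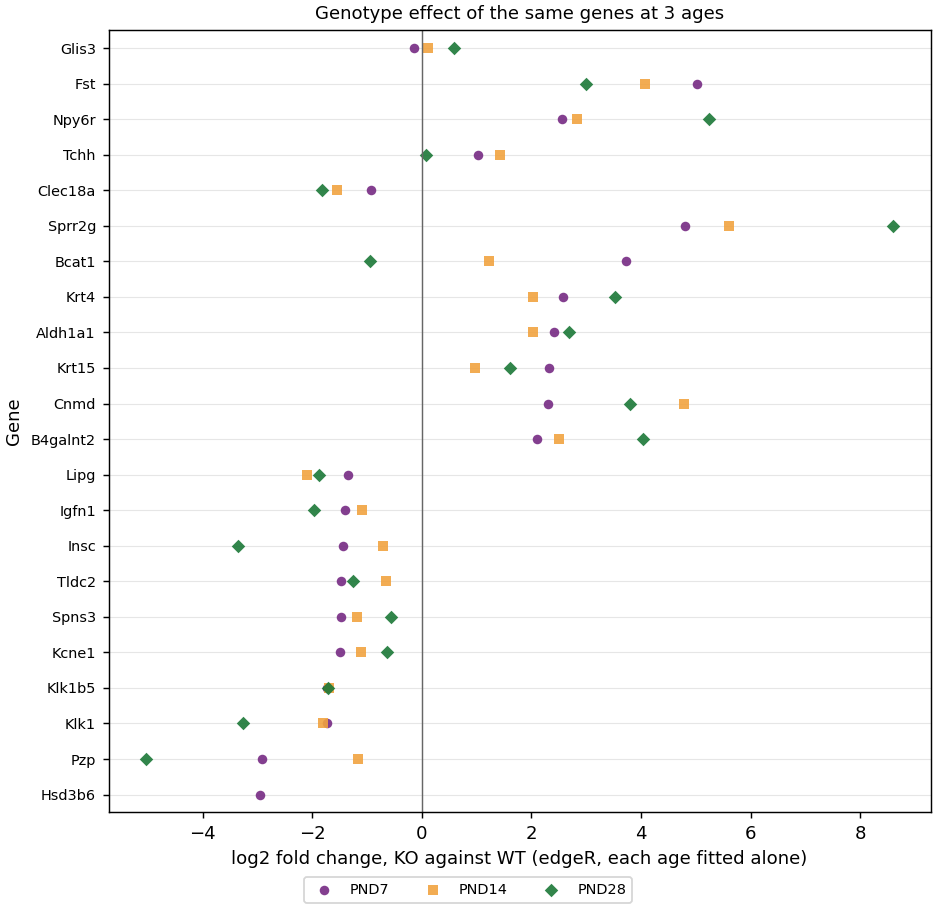
Log2 fold change of KO over WT at PND7, PND14 and PND28 (points, each age fitted alone with edgeR) for Glis3, the 4 called genes and genes with the largest separated differences at PND7. Fst and Clec18a keep their side at the 3 ages, Tchh lies at 0.07 at PND28, and Hsd3b6 was tested at PND7 alone.

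Several list members lay on opposite sides at PND7 and later. Egf, higher at PND7, had log2 fold changes of -0.49 at PND14 and -3.86 at PND28, and its effect differed from that at PND7 at both ages (edgeR adjusted p = 0.0137 and 1.53e-09). The peroxisomal genes Hao2 and Ehhadh, of hydroxy acid and fatty acid oxidation, lay above WT at PND7 (256.2 and 163.9 CPM against 130.6 to 156.0, and 207.6 and 173.3 CPM against 148.2 to 163.3) and were called lower at PND28, by -2.67 and -1.06 (edgeR adjusted p of the difference 6.15e-09 and 6.07e-06). Hsd11b2, lower at PND7, had log2 fold changes of -0.10 and 0.46 (edgeR adjusted p of the difference 0.0352 at PND14 and 2.45e-05 at PND28). Sox9, a transcription factor gene of progenitors and regenerating tubule, lay at 4.22 and 4.50 CPM against 4.90 to 6.41 CPM at PND7 and was called higher by 1.64 at PND14 and 3.42 at PND28. Its effect differed from that at PND7 at both ages (edgeR adjusted p = 0.00285 and 7.45e-08).

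Over all genes the effect differed from that at PND7 in 4.96% at PND14 and in 38.5% at PND28. The shares of all genes called higher and lower were 19.1% and 17.2% at PND14 and 32.9% and 32.8% at PND28. For proximal tubule genes the median was -0.33 at PND7 and -0.59 at PND14 with 33 of 37 members called lower at PND14, and the effect differed in 2 of 37, a share near that of all genes. At PND28 the median was -1.85 with 37 of 37 called lower, and the effect differed in 36. The macrophage list had 22 of 23 called higher at PND14 at a median of 1.08, and the effect differed from PND7 in 11 members at PND14 and in 16 at PND28. Tubule injury genes had medians of 1.39 and 2.63 at the later ages, and the effect differed from PND7 in 12 and 18 of 19 members. Cell cycle genes had a median of 0.41 at PND14, where the effect differed from PND7 in 0 of 34, and of -0.36 at PND28, where it differed in 14 of 34, a share near that of all genes. For GLIS, GLI and hedgehog genes the effect differed in 0 of 17 at PND14 and in 10 of 17 at PND28, and Glis2 stood at -0.71 there and at -1.10 at PND28. Stroma and matrix genes had 23 of 29 called higher at PND14 at a median of 0.71, with a different effect in 6, and in 20 at PND28.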

How the data were processed

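Reads were aligned and counted by the submitters, whose processing notes name STAR 2.5, featureCounts of Subread 1.5.0-p1 and build mm10. The authors deposited whole-number raw counts per gene, 1 table for each age and 1 column for each library, with 41442 rows at PND7, of which 12955 had no count there. The strand setting and the handling of multiply matching reads are not given in the sources used here, so counts of overlapping genes and near-identical families are uncertain. Positions are those of the deposited tables in mm10, counted from 1, and 115 rows that share a symbol were kept apart.

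From these counts, genes were filtered with filterByExpr, scaled by TMM and tested with edgeR 4.0.16 (quasi-likelihood, R 4.3.3, Benjamini-Hochberg over all 18420 genes), with PND14 and PND28 fitted alone and the ages compared in 1 joint fit. Alternatives used DESeq2 1.42.0, limma 3.58.1 (voom), other scalings and filters, thinning and left-out libraries. In each group the libraries differed by more than sampling noise (chi-square per degree of freedom 22.4 to 66.8). In these libraries 3 reads equal 0.0237 to 0.0517 CPM, and precision is limited by 2 and 3 libraries a group. Reads carry no molecular identifiers in the sources used here, so depth covers counting error only.

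The genes named are Glis3, the called genes, the 10 largest increases and 10 largest decreases with an average of at least 1 CPM, an unadjusted p under 0.05 and separated groups, and up to 4 members of each list by smallest p, with list-defining markers. A few genes that this rule names are not reported here. Predicted and clone-named gene models, Xist and Y-linked genes were passed over. Members and lists were chosen with earlier results of these data known. The fit was also run on simulated counts with known differences, and the outcome is not given here.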

Additional observations from a re-analysis of the deposited data

Results flagged for a closer look

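Among Glis3, the called genes and the genes with the largest differences at PND7, 9 are given here for which the effect of genotype differed between PND28 and PND7 in the joint edgeR fit (adjusted p under 0.05 over all genes). On the log2 scale, the effect at PND28 minus that at PND7 was 0.72 for Glis3 (edgeR adjusted p = 0.00535), 2.68 for Npy6r (0.000138), 3.80 for Sprr2g (0.0154) and 1.93 for B4galnt2 (0.00026). Glis3 lay at 123.4 ± 5.43 CPM in the KO libraries of PND28 against 82.5 ± 8.88 CPM in WT (SD, n = 4 each). The difference was -0.96 for Tchh (edgeR adjusted p = 0.00507), -1.53 for Klk1 (0.000498), -1.91 for Insc (0.0161) and -4.65 for Bcat1 (0.000415), and the PND7 value of Bcat1 rests on KO replicate 1. For Kcne1 it was 0.86 (0.0374), from -1.50 at PND7 to -0.64 at PND28. Between PND14 and PND7 none of these genes passed this test. The age difference cannot be told apart from a difference between the tables, which were made for each age.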

How the results depend on the processing

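The number of called genes depended on the test: it was 4 with edgeR, voom, median-ratio factors and thinning, 3 with an average of at least 1 CPM, 5 with upper-quartile factors, 829 with DESeq2, 221 without the low-count filter, 353 in the joint fit of 3 ages and 29 at an adjusted p under 0.1, and leaving out 1 library gave 0 to 1759. Same-numbered libraries correlated at r = -0.168 and 0.083 over 2 pairs, after subtraction of each group's mean. With 2 KO libraries these deviations mirror each other, so this cannot show whether replicate numbers pair the samples. A block on the replicate number left 3 called genes, of which Fst was the 1 also called without the block. Counts of separated genes ran from 3419 to 7068 upward and from 3936 to 6722 downward with 1 library left out, where separation is easier by construction. Named genes and list members were chosen by separated groups or small p in these same libraries. A separated gene can hardly change direction when 1 library is left out, so the next count was largely set by that choice. Of 2057 values for 148 named genes and list members, 2053 kept their direction. The others were Pfkp (-0.00387), Dusp1 (-0.0177) and Fabp4 (-0.195) without KO replicate 1 and Cidea (-0.885) without KO replicate 2. With 1 library left out in turn, Pfkp reached up to 0.714, Dusp1 0.926, Fabp4 0.948 and Cidea 2.06.

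Of 33 list medians 17 kept 1 sign throughout. With the block several medians moved, among them those of loop and distal tubule (0.0348), Wnt (0.27), liver and pancreas (-0.40), adipose (0.0449), collecting duct (0.12) and glycolysis (0.0538). With voom the median was -0.31 for adipose. With 1 library left out, medians ran from -0.0248 to 0.0567 for loop and distal tubule, -0.19 to 0.14 for collecting duct, -0.20 to -0.0829 for podocyte, -0.0738 to 0.0323 for ureteric bud tip, 0.0278 to 0.27 for stroma and matrix, -0.15 to 0.00361 for endothelium, 0.00466 to 0.37 for tubule injury, -0.13 to -0.011 for oxidative phosphorylation, -0.31 to -0.12 for cholesterol synthesis, -0.0937 to 0.34 for glycolysis, 0.0117 to 0.34 for cell cycle, -0.0877 to 0.026 for cilium and cystic kidney, -0.0614 to 0.0812 for GLIS, GLI and hedgehog, 0.11 to 0.27 for Wnt, 0.0278 to 0.14 for kidney transcription factors, -0.0701 to 0.38 for immediate early, -0.15 to 0.15 for heat shock, -0.41 to 0.029 for interferon, -0.96 to 0.11 for adrenal, -1.02 to 0.41 for adipose, 0.11 to 0.26 for skeletal muscle, -0.72 to -0.53 for blood, -0.44 to -0.26 for liver and pancreas, 0.0596 to 0.17 for nerve, -0.0171 to 0.14 for macrophage, -0.0851 to 0.0485 for fatty acid oxidation, 0.0485 to 0.21 for smooth muscle, -0.0223 to 0.0546 for nephron progenitor, -0.41 to -0.26 for proximal tubule, -0.24 to -0.0671 for amino acid catabolism, 0.0961 to 0.18 for activin, TGF-beta and BMP, -0.068 to 0.18 for ribosomal proteins and 0.65 to 1.86 for urothelium. The share of separated genes called in the same direction later was 58.6% upward and 57.8% downward at PND28 in place of PND14, and with 1 library left out at PND7 it ran from 29.0% to 36.5% and from 24.8% to 31.2% at PND14. The causes were not tested.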
